A study of Mus musculus with 4 samples.

Results

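The Hox genes of the mouse uterus divided by cluster between the luminal epithelium, the cell layer that lines the uterine cavity, and the stroma beneath it. Hox genes were taken as every gene of the deposited tables whose symbol is Hox, a cluster letter and a paralog number. This gave 39 of the 23235 genes, 11 in cluster A, 10 in B, 9 in C and 9 in D. Genes of the B cluster were high in luminal epithelium and genes of the A and D clusters in stroma. Genes of the C cluster were near 0 in both compartments.

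Hox genes code for transcription factors that bind DNA through a homeodomain, and they sit in clusters on separate chromosomes. Within a cluster the genes lie in the order in which they act along the body axis, and genes of the same number in different clusters are paralogs from one ancestral gene. In the female tract Hoxa9 marks the oviduct, Hoxa10 and Hoxa11 the uterus and Hoxa13 the cervix and upper vagina. Hoxa10 and Hoxa11 are best known here for their part in stromal growth, decidualization and implantation.

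RNA was sequenced in 4 libraries, 1 for each compartment of each genotype on day 4 of pseudopregnancy, the state that follows mating with a vasectomized male and involves no embryo. The control carried floxed alleles of both Msx homeobox genes (Msx1f/f/Msx2f/f), and the other mouse was labelled as a knockout specific to the uterus, with the genotype Msx1d/d/Msx2d/d. Compartments were collected by laser capture microdissection, and the libraries were made from total RNA after removal of ribosomal RNA. Each genotype is described with 1 mouse, so that genotype and animal cannot be told apart. The labels do not say whether 1 animal gave both compartments, which promoter drives the deletion or how old the mice were.

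Levels are given as RPKM, the reads of a gene divided by its transcript length and by the library's mapped reads, a level per length that allows genes to be compared within a library. The 2 compartments were deposited as separate tables that were normalized separately, so every comparison of compartments sets levels across tables. With 1 library in each group there is no replicate error and no test across samples; higher and lower describe these libraries only. The step between low RPKM values gave estimated depths of 6320000, 90800000, 42500000 and 60100000 reads for the luminal epithelium control, its labelled knockout, the stroma control and its labelled knockout. Read numbers and 95% counting limits below rest on these estimates and cover counting error only. In the luminal epithelium control, the 22 Hox genes listed at 0 could have been present at up to 0.171 to 0.704 RPKM, the level of 3 reads. Whether a 0 in these tables can also be a failed estimate was not tested. Jarid2, a Polycomb gene, was listed at 0 in both controls. It was listed at 6.83 RPKM in the luminal epithelium labelled knockout and 1.25 RPKM in the stroma labelled knockout.

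The compartment labels were checked against cell type markers. The summed level of 9 epithelial markers was 429 and 487 RPKM in the luminal epithelium control and labelled knockout and 1.76 and 0.541 RPKM in the stroma libraries. The sum of 8 stromal markers was 363 and 526 RPKM in stroma and 12.6 and 5.07 RPKM in luminal epithelium. Leukocyte markers (8 measured) summed to 9.21 and 1.61 RPKM in luminal epithelium and 56.9 and 28.3 RPKM in stroma, and 6 endothelial markers to 0.211 and 0.0772 RPKM in luminal epithelium and 32.1 and 28.3 RPKM in stroma. The sum of 5 glandular markers stayed at or below 0.558 RPKM in all 4 libraries. Smooth muscle markers (6 measured) summed to 4.15 and 0.556 RPKM in luminal epithelium and 16.0 and 18.5 RPKM in stroma. The sum of 4 mesothelial markers was 0.254 and 0.0553 RPKM in luminal epithelium and 3.39 and 4.13 RPKM in stroma. Wt1, also a uterine stromal gene, gave 3.38 and 4.05 RPKM of the stroma sums. The genotype label was not settled by the targeted genes: Msx1 went from 23.2 RPKM in the luminal epithelium control to 13.6 RPKM in its labelled knockout, and Msx2 from 1.31 to 2.06 RPKM. In such samples fewer cells of a type and less RNA per cell cannot be told apart.

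At least 1 RPKM was reached by 8 of 39 Hox genes in the luminal epithelium control, 7 in the luminal epithelium labelled knockout, 8 in the stroma control and 9 in the stroma labelled knockout. Of all genes, 31.8%, 33.5%, 32.4% and 33.0% reached that level in the same order. No Hox gene reached it in both compartments, where 27.4% of all genes did so in at least 1 library of each. It was reached in both luminal epithelium libraries and neither stroma library by 7 Hox genes, all of cluster B, against 5.26% of all genes. In both stroma libraries and neither luminal epithelium library it was reached by 8, of which 3 belong to cluster A and 5 to cluster D, against 5.53% of all genes. Hoxb9 reached it in the luminal epithelium control and Hoxd3 in the stroma labelled knockout only, which brings the number to 17, and 22 Hox genes did not reach 1 RPKM in any library.

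**Figure D1:**
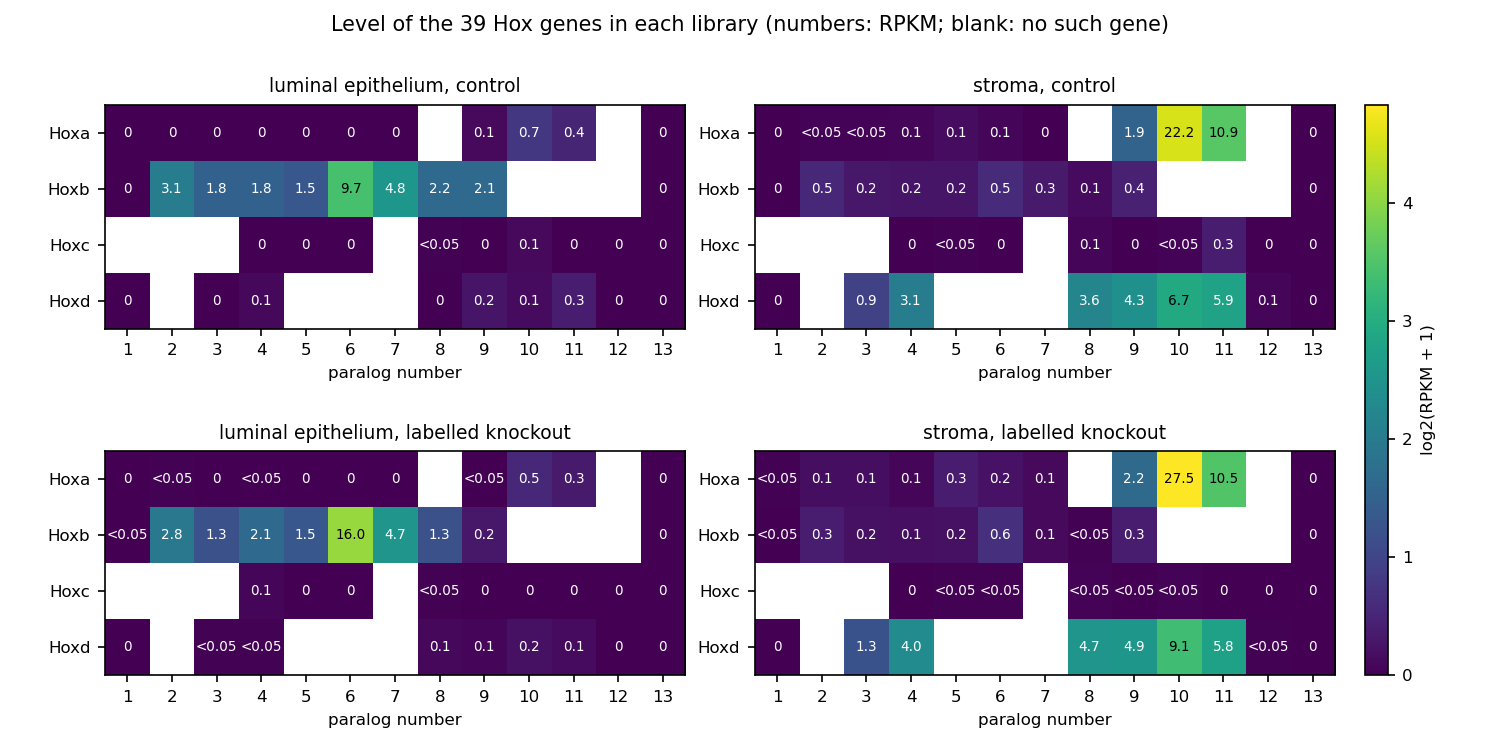
Level of the 39 Hox genes in the 4 libraries, 1 panel each, with clusters as lines and paralog numbers along the x axis; the printed numbers are RPKM, the colour is log2(RPKM + 1) and blank squares have no gene. The high values of luminal epithelium lie in cluster B, led by Hoxb6 at 9.71 and 16.0 RPKM, and those of stroma in clusters A and D, led by Hoxa10 at 22.2 and 27.5 RPKM.

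Cluster B made up 93.1% of the summed Hox RPKM of the luminal epithelium control and 95.9% of the labelled knockout. In stroma its share was 3.75% and 2.45%. Cluster A held 56.4% in each stroma library and cluster D 39.2% and 41.0%. In luminal epithelium cluster A held 4.21% and 2.47% and cluster D 2.29% and 1.39%. The share of cluster C was at most 0.632%, in the stroma control. These shares use levels within 1 library and do not depend on how the tables were scaled against each other. Total Hox RPKM was 29.0 and 31.2 in luminal epithelium and 62.7 and 72.9 in stroma.

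**Figure D2:**
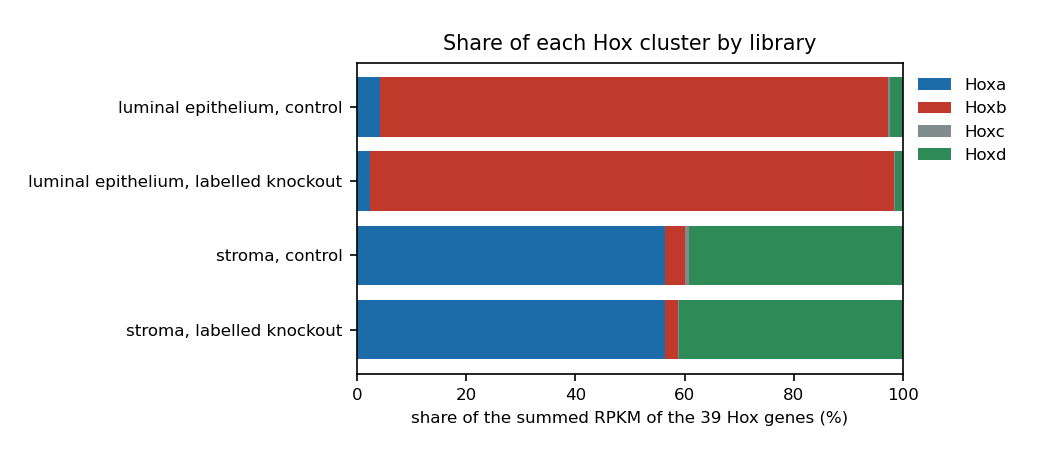
Share of each library's summed Hox RPKM (percent) that came from clusters A, B, C and D. Cluster B fills 93.1% and 95.9% of the luminal epithelium bars, and clusters A and D fill nearly all of the stroma bars.

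Promoter sequences are shown for 4 of the genes that mark the division: Hoxa10 and Hoxa11, the leading genes of stroma, and Hoxb8 and Hoxd8, paralogs that were high in opposite compartments. Each is the 250 bases before an annotated transcript start in RefSeq (GRCm38.p6), written 5′ to 3′ on the gene's strand. Capitals mark any match, on either strand, to 5 motifs that were searched: TAATTG (a core bound by Msx homeodomains), TGATTNAT (bound by Pbx with Hox proteins), TTTATG (bound by Cdx proteins), AGAACA (a steroid receptor half-site) and GGGCGG (bound by Sp proteins). A match is a description of letters and not a site.
Hoxa10 chr6:52234940-52235189, minus strand: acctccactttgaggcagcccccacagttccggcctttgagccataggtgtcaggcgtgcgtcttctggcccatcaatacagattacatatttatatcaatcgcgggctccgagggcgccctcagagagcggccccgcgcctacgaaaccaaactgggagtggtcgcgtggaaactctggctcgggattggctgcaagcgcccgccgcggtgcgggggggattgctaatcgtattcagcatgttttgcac
Hoxa11 chr6:52245811-52246060, minus strand: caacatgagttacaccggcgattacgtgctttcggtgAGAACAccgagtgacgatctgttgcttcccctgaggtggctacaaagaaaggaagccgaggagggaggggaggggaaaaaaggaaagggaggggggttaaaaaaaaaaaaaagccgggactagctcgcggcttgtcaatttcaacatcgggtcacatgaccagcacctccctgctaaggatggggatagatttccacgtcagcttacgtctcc
Hoxb8 chr11:96281655-96281904, plus strand: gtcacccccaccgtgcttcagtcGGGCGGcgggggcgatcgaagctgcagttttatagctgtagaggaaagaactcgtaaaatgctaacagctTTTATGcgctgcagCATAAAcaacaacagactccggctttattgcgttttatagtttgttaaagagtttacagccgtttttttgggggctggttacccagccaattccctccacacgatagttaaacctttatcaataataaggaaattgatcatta
Hoxd8 chr2:74704365-74704614, plus strand: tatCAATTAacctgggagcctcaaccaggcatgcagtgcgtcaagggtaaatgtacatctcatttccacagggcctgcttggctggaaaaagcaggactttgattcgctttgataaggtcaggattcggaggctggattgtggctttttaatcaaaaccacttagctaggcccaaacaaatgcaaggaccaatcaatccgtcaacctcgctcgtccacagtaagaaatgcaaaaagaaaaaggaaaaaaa
The Hoxa10 window, 1 of 2 for this gene, held none of the motifs and 20 CpG. Hoxa11 held AGAACA 1 time, and Hoxb8 held TTTATG 2 times and GGGCGG 1 time. Hoxd8 held TAATTG 1 time, read on the opposite strand and starting at base -247 from the transcript start. The table gave 24 windows for 22 of the 39 Hox genes, and among them this was 1 of 24 with TAATTG, where 7.17% of all 32817 windows of this length hold it. TTTATG was in 5 of 24 (10.8% of all windows), TGATTNAT in 2 (2.83%), AGAACA in 2 (16.1%) and GGGCGG in 10 (32.7%). Median GC content was 58.6% for the Hox windows and 52.4% for all, and the median number of CpG was 12.5 and 6.

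Genes of the B cluster lie on chromosome 11 in the deposited tables (mm9), between positions 96055675 and 96229567. Hoxb6, known from blood progenitors and the embryonic axis, was the highest Hox gene of luminal epithelium (11:96160485-96162883). It measured 9.71 RPKM in the luminal epithelium control, 16.0 in the luminal epithelium labelled knockout, 0.514 in the stroma control and 0.599 in the stroma labelled knockout. Both luminal epithelium values lay above both stroma values. The ratio of luminal epithelium to stroma was 18.9 in the control (95% counting limits 12 to 32.2) and 26.6 in the labelled knockouts (19.7 to 37.8).

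Hoxb7, active in the Wolffian duct and ureteric bud, was next, at 4.79 and 4.74 RPKM in the luminal epithelium control and labelled knockout and 0.272 and 0.0936 RPKM in the same order in stroma. The estimated reads in stroma were 13 and 6. Hoxb2, which patterns the hindbrain, measured 3.10 and 2.81 RPKM in luminal epithelium and 0.457 and 0.288 RPKM in stroma. Hoxb8, which acts in the spinal cord and in myeloid progenitors, measured 2.15 and 1.30 RPKM in luminal epithelium and 0.103 and 0.0261 RPKM in stroma, with 11 and 4 estimated reads there. All 3 genes were higher in each luminal epithelium library than in either stroma library.

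Hoxb4, known for its effect on blood stem cells, measured 1.84 and 2.13 RPKM in luminal epithelium and 0.203 and 0.147 RPKM in stroma. Hoxb3, a hindbrain and pharyngeal gene, measured 1.84 and 1.29 RPKM in luminal epithelium and 0.244 and 0.165 RPKM in stroma. Hoxb5, a gene of the enteric nervous system and foregut, measured 1.47 RPKM in both luminal epithelium libraries and 0.207 and 0.162 RPKM in stroma. The ratios of the 3 genes between compartments ran from 7.09 (Hoxb5, control) to 14.5 (Hoxb4, labelled knockouts). These members form 1 unbroken run along the chromosome, from Hoxb9 to Hoxb2, and the genes at both ends of the cluster were outside it. Hoxb1, the hindbrain gene at one end, reached at most 0.0126 RPKM, and Hoxb13, the prostate gene at the other, was listed at 0 in all 4 libraries. Hoxb13 is separated from Hoxb9 by 74.7 kb, and Hoxb1 from Hoxb2 by 11.7 kb.

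Hoxb9, which takes part in rib and mammary gland development, was the B gene called different by genotype label in luminal epithelium under a 2-fold rule on the scale log2(RPKM + 1). The call was lost with libraries divided by their upper quartile, with a minimum of 2 RPKM and at 3-fold. With the upper quartile Hoxb9 kept a log2 difference of -1.18, but its mean fell under the minimum of 1 RPKM. It measured 2.14 RPKM in the luminal epithelium control, 0.233 in the luminal epithelium labelled knockout, 0.353 in the stroma control and 0.293 in the stroma labelled knockout (11:96132644-96137907). Of the 4 libraries, the luminal epithelium control stood above the other 3 libraries, which lay within 0.233 to 0.353 RPKM. The ratio of luminal epithelium to stroma was 6.06 in the controls (limits 3.59 to 9.90) and 0.797 in the labelled knockouts (0.512 to 1.22).

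The A cluster lies on chromosome 6 between positions 52105366 and 52210874, and most of its summed RPKM came from 3 genes. Hoxa10 (6:52181196-52190853) was the highest Hox gene of stroma, at 22.2 RPKM (control) and 27.5 RPKM (labelled knockout), against 0.721 and 0.464 RPKM in luminal epithelium. It was 30.8-fold lower in luminal epithelium than in stroma in the control (limits 16.0 to 73.4) and 59.2-fold lower in the labelled knockouts (47.0 to 75.2). Hoxa11 (6:52192105-52199768) measured 10.9 and 10.5 RPKM in stroma and 0.408 and 0.277 RPKM in luminal epithelium. This was 26.7-fold lower in luminal epithelium in the control (12.3 to 88.7) and 37.9-fold lower in the labelled knockouts (28.6 to 50.5). Hoxa9, the oviduct gene, measured 1.89 and 2.18 RPKM in stroma and 0.0941 and 0.00643 RPKM in luminal epithelium, where both values rest on about 2 reads.

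The other 8 A genes measured at most 0.291 RPKM, for Hoxa5 in the stroma labelled knockout. Hoxa13, the gene of the lower tract, was listed at 0 in all 4 libraries although it lies only 9.08 kb from Hoxa11. Hoxa3, Hoxa4, Hoxa5 and Hoxa6 share 1 locus in the tables, and the locus of Hoxa11 overlaps its antisense gene Hoxa11as. The sources used here do not say whether counting used the strand, so reads of these overlapping genes cannot be separated.

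In the D cluster, on chromosome 2, 6 genes from Hoxd3 to Hoxd11 carried the stromal signal. Hoxd10, a gene of limb and spinal cord development (2:74530005-74533159), led with 6.67 and 9.15 RPKM in stroma against 0.10 and 0.162 RPKM in luminal epithelium. Hoxd11, a limb and kidney gene, measured 5.90 and 5.79 RPKM in stroma and 0.284 and 0.101 RPKM in luminal epithelium. Hoxd9, which acts with its paralogs in limb and mammary gland, measured 4.34 and 4.87 RPKM in stroma and 0.210 and 0.0664 RPKM in luminal epithelium. The stroma values of all 3 lay above both luminal epithelium values.

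Hoxd8 measured 3.61 and 4.70 RPKM in stroma and 0 and 0.0717 RPKM in luminal epithelium. Against a floor of 3 reads in the luminal epithelium control it was estimated as at least 18.5-fold lower there. The 95% counting limit of that ratio is wider, at 14.97-fold. Both use a transcript length of 2634 bases, which is longer than the locus of Hoxd8 (2:74543546-74545364). The floor may therefore be too low and both folds too large. Hoxd4, which patterns the upper spine, measured 3.06 and 4.04 RPKM in stroma and 0.0713 and 0.0150 RPKM in luminal epithelium. Hoxd3, its neighbour, measured 0.939 and 1.32 RPKM in stroma and 0 and 0.0176 RPKM in luminal epithelium, at least 5.48-fold lower in the control against the same floor, with a 95% limit of 4.36-fold. Hoxd3 and Hoxd4 share a locus in the tables with Mir10b and a noncoding gene, so the split of reads between them is uncertain. The ends of this cluster were low too. Hoxd1 and Hoxd13, the digit gene, were listed at 0 in all 4 libraries, and Hoxd12 measured 0.0638 and 0.0220 RPKM in stroma and 0 in luminal epithelium.

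Cluster C gave no gene at 0.3 RPKM in any library. Its highest value was 0.285 RPKM for Hoxc11, a posterior gene of limb and kidney, in the stroma control, from an estimated 22 reads. Hoxc11 was listed at 0 in the other 3 libraries, at least 10.4-fold lower in the stroma labelled knockout against a floor of 3 reads, with a 95% limit of 7.75-fold. The authors' deposited table marks it as not tested, with a p of 0.0624. Hoxc12 and Hoxc13, the hair gene, were listed at 0 in all 4 libraries, which makes 6 Hox genes without a value in any library together with Hoxa13, Hoxb13, Hoxd1 and Hoxd13.

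The size of the compartment difference was also taken on the scale log2(RPKM + 1), with a gene called higher or lower at a log2 difference of at least 1 in size when its mean over the pair was at least 1 RPKM. In the controls 14 Hox genes passed this minimum, of which 7 were higher in luminal epithelium and 7 lower, where 19.6% and 12.1% of the 8030 genes that passed were called. With libraries divided by their upper quartile the counts were 3 higher and 8 lower, and the higher share of all called genes went from 61.8% to 34.1%. With a minimum of 2 RPKM, or at 3-fold, 2 were higher. In the labelled knockouts 12 passed, with 4 higher and 8 lower, against 20.7% and 10.7% of 8350 genes, and the higher count was 2 with a minimum of 2 RPKM or at 3-fold. A gene that is near 0 in one library passes the minimum only through the other, so these counts are a description. With no minimum, 8 of 39 Hox genes were higher and 8 lower in the controls (7.31% and 5.73% of all genes), and 6 were higher and 9 lower in the labelled knockouts (7.95% and 5.28%). All those higher belong to cluster B and all those lower to clusters A and D.

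**Figure D3:**
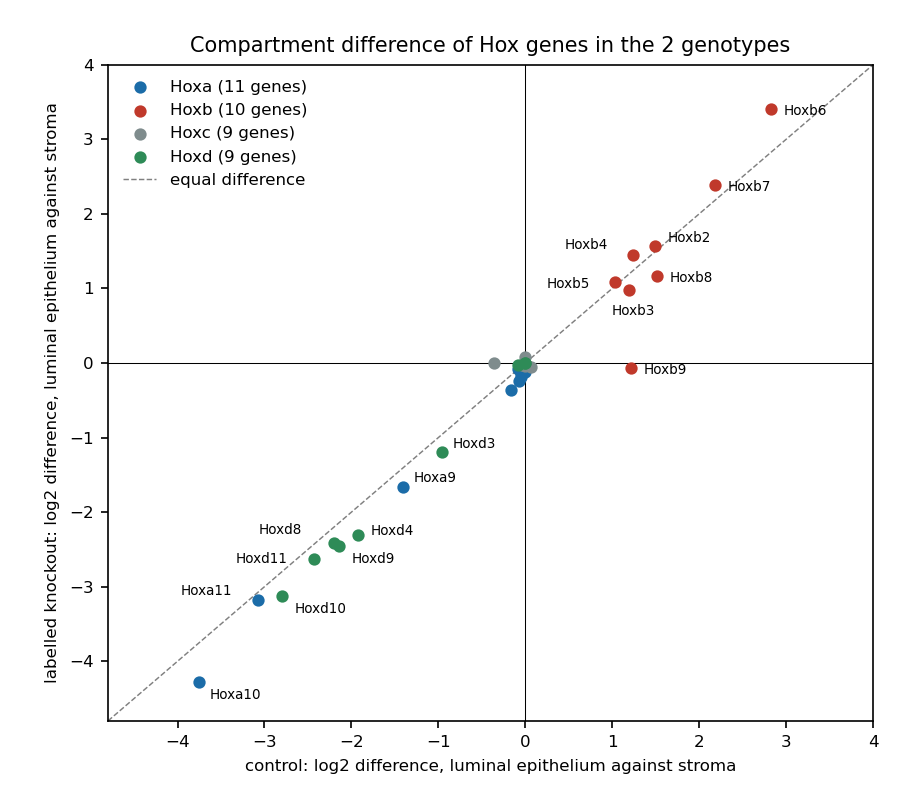
Difference between luminal epithelium and stroma on the scale log2(RPKM + 1), with the control pair on the x axis, the labelled knockout pair on the y axis, 1 point for each Hox gene coloured by cluster and a dashed line of equal difference. Named B genes lie to the upper right and named A and D genes to the lower left, from 3.41 for Hoxb6 to -4.28 for Hoxa10 in the labelled knockouts, and Hoxb9 moves from 1.21 to -0.07 between the pairs.

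The difference had the same sign in the 2 genotypes for 24 Hox genes and the opposite sign for 2, and for 13 it was 0 in at least 1 genotype. The 24 take in genes below 1 RPKM in every library, whose signs can rest on a few reads. Hoxa2, for example, had an estimated 0 reads in the luminal epithelium control and 2 in the far deeper stroma control. Hoxa10 gave a log2 difference of -3.75 in the controls and -4.28 in the labelled knockouts, Hoxd10 gave -2.80 and -3.13, and Hoxb6 gave 2.82 and 3.41. Across the 39 genes the 2 sets of differences gave a Pearson r of 0.985, as a description over genes that share libraries and are not independent replicates. The gene that moved most between the genotypes was Hoxb9, by 1.28.

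Paralogs of the same number could be high in opposite compartments. In group 8, Hoxb8 was the highest member of both luminal epithelium libraries and Hoxd8 of both stroma libraries. The same held for Hoxb3 and Hoxd3 and for Hoxb4 and Hoxd4. In group 9, Hoxd9 led both stroma libraries, while Hoxb9 exceeded 1 RPKM in the luminal epithelium control alone. Groups 10 and 11 have no B gene, and their summed levels were 0.909 and 0.626 RPKM (group 10) and 0.692 and 0.379 RPKM (group 11) in luminal epithelium. In stroma, group 10 summed to 29.0 and 36.6 RPKM and group 11 to 17.1 and 16.3 RPKM. Group 6, with Hoxb6, summed to 9.71 and 16.0 RPKM in luminal epithelium and 0.568 and 0.806 RPKM in stroma. The 4 genes of group 13 were all listed at 0 in every library.

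RNA from one compartment in the capture of the other was set beside the low values. In the luminal epithelium control, the 8 A and D genes at 1 RPKM or more in both stroma libraries had a median of 3.49% of their stroma level, from 0 (Hoxd8) to 4.97% (Hoxa9). The 8 stromal markers had a median of 3.90%, from 1.81% (Vim) to 10.9% (Hand2). In the labelled knockouts the medians were 1.61% for the Hox genes and 0.997% for the markers. In the other direction, the 7 B genes had a median of 11% of their luminal epithelium level in the stroma control and 6.90% in the stroma labelled knockout. The 9 epithelial markers had a median of 0.340% and 0.0945% there, below the lowest B gene in each (4.80% for Hoxb8 and 1.97% for Hoxb7). The part of carried-over cells in the low Hox values was not tested beyond these percentages.

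**Figure D4:**
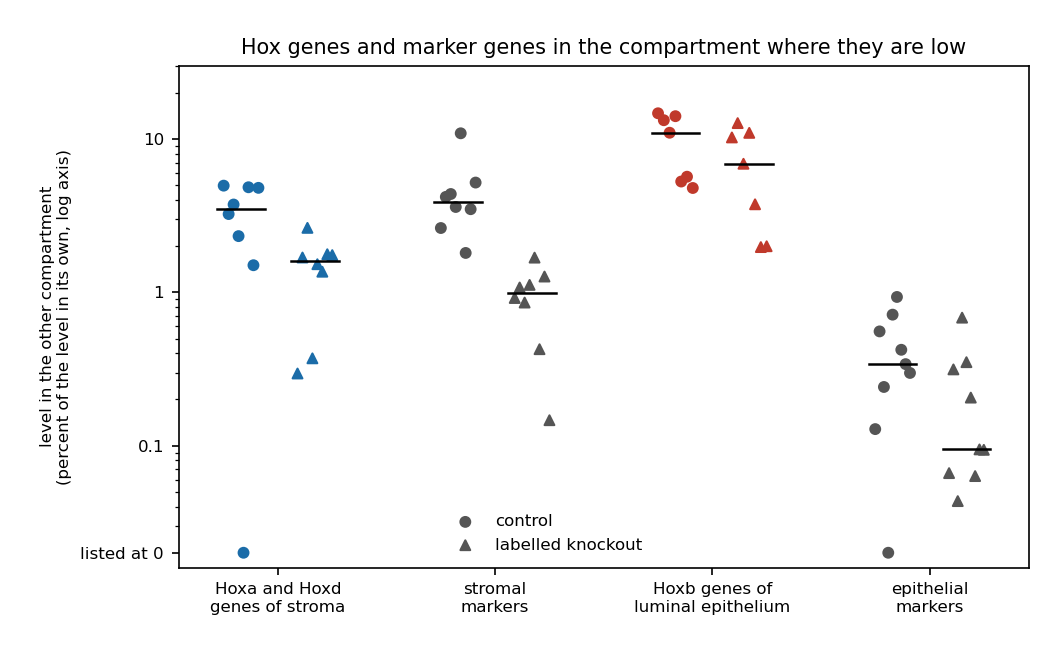
Level of each gene in the other compartment as a percent of the level in its own (log axis, with 0 drawn at the bottom), for Hox genes and for cell type markers; circles are the control, triangles the labelled knockout and lines the medians. In the control the A and D genes in luminal epithelium have a median of 3.49% beside 3.90% for the stromal markers, and the B genes in stroma lie above the epithelial markers (medians 11% and 0.340%).

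Fewer Hox genes were called between genotype labels than between compartments, and the same held for all genes. In luminal epithelium 8 Hox genes passed the minimum; 0 were higher and 1, Hoxb9, was lower in the labelled knockout, where 5.03% and 1.99% of 7736 genes were called. In stroma 9 passed and 0 were higher or lower, where 1.45% and 1.59% of 7723 genes were called. With no minimum the same counts of 0 and 1 in luminal epithelium (1.82% and 0.813% of all genes) and 0 and 0 in stroma (0.499% and 0.547%) were found. Hoxb9 was 9.16-fold lower in the luminal epithelium labelled knockout, with limits of 5.71 to 14.6 and an estimated 32 reads in the control and 50 in the far deeper labelled knockout library. The authors' deposited table gives it a p of 0.00708 and a q of 0.0936. That table tested 10 Hox genes in luminal epithelium and 13 in stroma, and 0 had a q under 0.05 in either, where 0.841% of 11176 genes tested in luminal epithelium and 0.0409% of 12239 in stroma did.

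Smaller genotype differences could be set only against counting error. In luminal epithelium the limits of the ratio lay above 1 for Hoxb6 (1.64, limits 1.29 to 2.12) and below 1 for Hoxb8 (0.606, limits 0.423 to 0.90) and Hoxb9. They held 1 for the other 5 that passed. Of 7518 genes with limits, 24.8% lay above 1 and 13.6% below in this comparison. In stroma the limits lay above 1 for 5 of the 9 that passed and below for 0, where 32.1% and 11.7% of 7425 genes did. The 5 were Hoxd3 (1.41, limits 1.12 to 1.79), Hoxd10 (1.37, 1.22 to 1.54), Hoxd4 (1.32, 1.15 to 1.52), Hoxd8 (1.30, 1.15 to 1.48) and Hoxa10 (1.23, 1.16 to 1.31). The limits of Hoxd8 use a transcript length greater than its locus and may be too narrow. Hoxa9, Hoxa11, Hoxd9 and Hoxd11 had ratios of 1.15, 0.967, 1.12 and 0.981, with limits that held 1. These limits leave out the spread between mice, and 1 mouse of each label cannot show it.

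**Figure D5:**
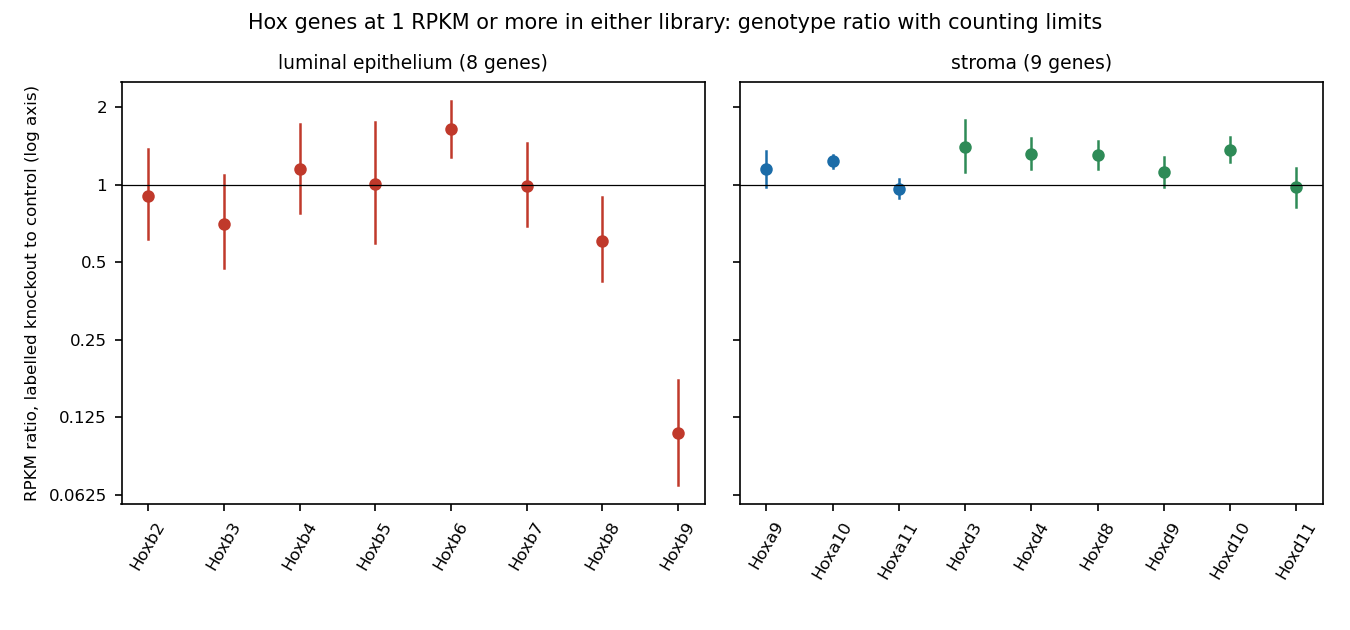
Ratio of the labelled knockout to the control for the 8 Hox genes of luminal epithelium and the 9 of stroma that passed the minimum, which are also those at 1 RPKM or more in either library, on a log axis; lines are 95% limits that cover counting error only. Hoxb9 in luminal epithelium stands apart at 0.109, and the stroma ratios lie between 0.967 and 1.41.

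Noncoding genes of the clusters could be matched for 8 of 13 names. Hoxa11as, transcribed against Hoxa11, measured 12.1 and 11.5 RPKM in stroma and 0.692 and 0.191 RPKM in luminal epithelium, the same compartment as Hoxa11, with which it shares a locus. The clusters also hold microRNA genes, whose mature products are shown because the pairs come from different clusters and share a seed. The sequences are from RefSeq (GRCm38.p6), and capitals mark the seed, bases 2 to 8.
mmu-miR-10a-5p: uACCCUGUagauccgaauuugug
mmu-miR-10b-5p: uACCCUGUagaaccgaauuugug
mmu-miR-196a-5p: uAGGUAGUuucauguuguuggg
mmu-miR-196b-5p: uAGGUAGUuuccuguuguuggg
Counted from the 5′ end, miR-10a differs from miR-10b by U12A, outside the seed, and miR-196a from miR-196b by A12C. In the tables Mir10a, in cluster B, was listed at 14.4 RPKM in the luminal epithelium labelled knockout and at 0 elsewhere. Mir10b, in cluster D, was listed at 102 RPKM in the stroma control and at 0 elsewhere. Mir196a-1 (cluster B) was listed at 12.3 RPKM in the stroma control alone and Mir196b (cluster A) at 24.1 RPKM in the stroma labelled knockout alone. These rows are precursor genes shorter than the length allowance used to estimate reads, so their read numbers are unknown and they are not levels of the mature microRNA.

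Genes that work with or act on Hox genes were also read from lists of genes. Among TALE homeodomain cofactors, which bind DNA together with Hox proteins, Meis1 measured 5.34 and 4.66 RPKM in luminal epithelium and 1.45 and 2.00 RPKM in stroma. Pbx2 measured 2.51, 2.98, 1.74 and 1.77 RPKM and Pknox2 0.270, 0.759, 2.19 and 1.76 RPKM, in the order luminal epithelium control and labelled knockout, then stroma control and labelled knockout. Both luminal epithelium values of Meis1 and of Pbx2 lay above both stroma values, and those of Pknox2 lay below.

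Of 24 Polycomb genes, which keep Hox genes silent, 15 passed the minimum in each genotype. Of these 15, 4 were higher and 0 lower in luminal epithelium in the controls, beside 19.6% and 12.1% of all genes that passed, and 3 and 0 in the labelled knockouts, beside 20.7% and 10.7%. Cbx6 measured 10.4 and 10.8 RPKM in luminal epithelium and 3.38 and 4.94 RPKM in stroma. Ezh1, a histone H3 methyltransferase, measured 5.54 and 4.08 RPKM in luminal epithelium and 1.41 and 1.37 RPKM in stroma, and Bmi1 3.58 and 2.82 against 1.64 and 2.17 RPKM. Of 12 Trithorax genes, which oppose Polycomb, all passed the minimum, and 1 was higher and 0 lower in each genotype, beside the same all-gene shares. Kdm6a, a histone demethylase, led them at 10.8 and 10.2 RPKM in luminal epithelium and 2.65 and 2.26 RPKM in stroma. Dpy30 measured 4.72 and 5.60 RPKM in luminal epithelium and 2.46 and 4.09 RPKM in stroma. Ash2l measured 4.36 and 4.01 against 2.98 and 2.83 RPKM, and Mll3 3.47 and 3.82 against 1.46 and 1.81 RPKM.

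Among 13 caudal and retinoid genes, upstream regulators of Hox clusters in the embryo, Cdx1, Cdx2 and Cdx4 were listed at 0 in all 4 libraries. The retinoid enzymes were divided by compartment. Aldh1a2, which makes retinoic acid, measured 5.74 and 7.31 RPKM in stroma and 0.151 and 0.0422 RPKM in luminal epithelium. Cyp26a1, which degrades it, measured 4.96 and 3.89 RPKM in luminal epithelium and 0 and 0.0555 RPKM in stroma. Aldh1a1, another enzyme of synthesis, measured 0.789 RPKM in the luminal epithelium control, 4.86 in the labelled knockout and 0.0248 and 0.0968 in stroma. The receptor gene Rxra differed less, at 2.89 and 2.93 RPKM in luminal epithelium and 1.91 and 2.17 RPKM in stroma.

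Of 8 uterine genes listed as linked to Hoxa10 or Hoxa11, the integrin gene Itgb3 measured 2.95 and 5.09 RPKM in stroma and 0.117 and 0.0614 RPKM in luminal epithelium. Whether each depends on these Hox genes was not tested. Emx2, a homeobox gene of the tract, measured 1.66 and 3.70 RPKM in luminal epithelium and 1.45 and 1.39 RPKM in stroma. Ptger4, a prostaglandin receptor gene, measured 7.88 and 9.85 RPKM in luminal epithelium and 3.69 and 2.55 RPKM in stroma. Pgr, the progesterone receptor gene, measured 3.87 and 11.4 RPKM in luminal epithelium and 3.88 and 7.62 RPKM in stroma. Between genotype labels 4 of the 8 passed the minimum in luminal epithelium, with 1 higher and 1 lower, beside 5.03% and 1.99% of all genes that passed. In stroma 5 passed, with 0 higher or lower, beside 1.45% and 1.59%.

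Of 10 genes listed as flanking the clusters, Evx1 and Evx2, homeobox genes beside the posterior ends of clusters A and D, were at 0 in all 4 libraries. Skap2 and Snx10, beside cluster A on chromosome 6, were higher in luminal epithelium, at 4.85 and 5.02 RPKM and at 11 and 4.65 RPKM, than in stroma, at 1.22 and 0.794 RPKM and at 1.91 and 1.56 RPKM. This is the opposite compartment to Hoxa9, Hoxa10 and Hoxa11. Mtx2, beside cluster D, measured 2.84 and 3.31 RPKM in luminal epithelium and 2.65 and 2.92 RPKM in stroma, and Cbx5 2.33, 4.99, 4.03 and 5.11 RPKM in the order used above.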

How the data were processed

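RNA from 4 libraries was analysed, 1 per compartment and genotype label. Levels are RPKM as computed by the authors, per the file headers, in 1 table for each compartment. The authors also deposited a p-value, a q-value and a log2 ratio for each gene, from their comparison of knockout with control; the first 2 are quoted only as theirs and the third was not used. The submitters' processing notes name the build mm9, Cufflinks 2.0.2, TopHat2 2.0.5, TopHat and CASAVA 1.8.2; what each did, and whether strand was used to count, is not given in the sources used here.

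Differences were taken on the scale log2(RPKM + 1), which understates those of low genes, with a minimum mean of 1 RPKM over the pair and a threshold of 2-fold. Read numbers were estimated from the step between low RPKM values and transcript lengths less 200 bases (GENCODE, found for 97.3% of genes and all 39 Hox genes). The length found for Hoxd8 is greater than its locus, so its read numbers may be too high. Of low values, 58.6% to 61.0% came within 0.2 of a whole number, so depths are estimates. A window this wide also takes in a large part of values that follow no step, so the depths are rough. Limits of ratios are exact binomial at 95%. The depth and fold steps were tested on simulated data. For depth these had exact transcript lengths and little noise, so that check does not show how well the real depths were estimated. Starts in the tables count from 0 and were raised by 1. Every Hox gene was accounted for, with values in each library for those at 1 RPKM or more; of each other list, up to 4 genes with the highest RPKM are named, except 1 that is not reported here. The members and lists were chosen with earlier results of these data known. Alternatives varied the scaling, the pseudocount, the minimum, the fold and the level. No sample was left out. Analyses used Python 3.11.15, pandas 2.3.3, numpy 2.4.6 and scipy 1.17.1.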

Additional observations from a re-analysis of the deposited data

How the results depend on the processing

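No paired analysis was possible because each group has 1 library. Precision is limited by the luminal epithelium control, where all Hox genes of clusters A, C and D have fewer than 10 estimated reads. Single-gene alternatives, of pseudocount and scaling only, were run for the 17 Hox genes at 1 RPKM or more in any library. Of 272 log2 values under them, 129 fell outside the counting limits of the main value. A pseudocount cannot change a sign, and the scalings were smaller than most compartment differences, so those signs could hardly change. None of the 17 changed the sign of its compartment difference, or of its stroma genotype difference. In the luminal epithelium genotype comparison Hoxb4, Hoxb5 and Hoxb7 changed sign. Dividing libraries by their upper quartile moved the median compartment difference of kept genes by -0.53 (log2) in the controls and -0.42 in the labelled knockouts; leaving the 50 most abundant genes out of the sum moved it by -0.19 and -0.31. The higher share of all called genes went from 61.8% to 34.1% and 51.5% in the controls, and from 66.0% to 44.9% and 50.6% in the labelled knockouts; in the luminal epithelium genotype comparison it went from 71.6% to 76.7% and 58.9%. Hox genes higher in luminal epithelium numbered 7 in the controls, 3 with the upper quartile, 2 with a minimum of 2 RPKM and 2 at 3-fold; in the labelled knockouts they numbered 4, and 2 under each of the last 2 settings. Hoxb9, the 1 gene lower by genotype in luminal epithelium, was not called (count 0) with the upper quartile, a minimum of 2 RPKM or 3-fold; its log2 difference was -1.35, and -2.75 to -1.18 over the alternatives. At 1.5-fold, 1 gene was called higher there in place of 0. At a level of 2 RPKM, 5 Hox genes in place of 8 and 4 in place of 7 were counted in the luminal epithelium control and labelled knockout. With the upper quartile the genotype difference of Hoxb9 was -1.18, past the threshold, so that call was lost through the minimum of expression. Among the control compartment calls, Hoxb3, Hoxb4 and Hoxb9 then fell under the threshold, at 0.90, 0.97 and 0.89. Hoxb8 stayed past it, at 1.26, and was lost through the minimum. Why the scalings differed between libraries was not tested.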

Other observations

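Meis2, a TALE homeodomain cofactor of Hox proteins, was singled out after its values were seen. It was listed at 0.00287 RPKM in the luminal epithelium control, less than 1 estimated read, and at 2.18 RPKM in the luminal epithelium labelled knockout (592 estimated reads). In stroma it measured 1.66 RPKM (control) and 1.81 RPKM (labelled knockout). Whether the value in the luminal epithelium control is a failed estimate was not tested.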
